A study of Homo sapiens with 20 samples.

Results

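The mRNAs held in eIF1 complexes were compared with those held in eIF4G1 complexes in HEK 293T, a human cell line made from embryonic kidney, while the interaction of these translation initiation factors was inhibited. The comparison took the 3 HA-eIF1 and the 3 eIF4G1 immunoprecipitates from cells given i14G1-12, which are 6 of the 20 libraries of the series, and joined them by gene ID. All 19029 IDs entered, and 7748 passed the filter on low counts and were tested. Cells of both groups carried the genotype label WT and received 5 µM i14G1-12 for 1 h, with crosslinking in 0.15% formaldehyde. RNase I trimmed the RNA, ultracentrifugation separated the complexes, and the pulldown was through the HA tag for eIF1 and through eIF4G1 itself for the other group. The same pair in the solvent DMSO (3 libraries each), and HA-eIF2a and eIF3 under i14G1-12 and in DMSO (2 libraries each per treatment), are used below only to place the result. The labels do not say how HA-eIF1 was expressed, or whether replicates are separate cultures. The p-values then cover only how far these libraries vary, which can be technical.

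eIF1 is a small protein that sits on the small ribosomal subunit near the decoding site, keeps the subunit open for scanning, and leaves when a start codon is recognised. eIF4G1 is the scaffold of the cap-binding complex: it binds the cap-binding protein eIF4E, the helicase eIF4A and the poly(A)-binding protein, and brings mRNA to the subunit through eIF3. Selective translation complex profiling fixes such complexes on mRNA, digests the unprotected RNA, pulls on 1 factor and sequences what it protected. A value here is therefore a share of the footprints of 1 factor's complexes in CPM, its counts scaled to a common total, and more footprints of an mRNA cannot be told apart from fewer footprints of the others. No input library was used here. Factor, antibody and, for eIF1, the HA tag differ together between the groups. The cells that carried HA-eIF1 may also differ from those of the eIF4G1 group, which the labels do not settle. The parts of these cannot be told apart.

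The counts themselves had an uneven make-up that bears on every value below. Totals were 564021, 600524 and 503668 in eIF1 libraries a, b and c, and 321355, 401076 and 1085854 in eIF4G1 libraries 1, 2 and 3. In eIF4G1 library 3, 12568 of the 12574 counts above 0 (99.95%) were multiples of 3: no ID had 1 or 2 counts, 1251 had 3, none had 4 or 5, and 680 had 6. In eIF4G1 libraries 1 and 2 more IDs had 3 counts (1160 and 893) than 2 counts (365 and 273), and in the eIF1 libraries more had 2 counts (1150, 886 and 997) than 1 (841, 682 and 757). Whether a deposited count stands for 1 footprint, and where these steps come from, was not tested. If 3 counts of eIF4G1 library 3 stood for 1, its depth would be overstated. The comparison was repeated with that library divided by 3, and the values stand beside the results they alter.

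**Figure D1:**
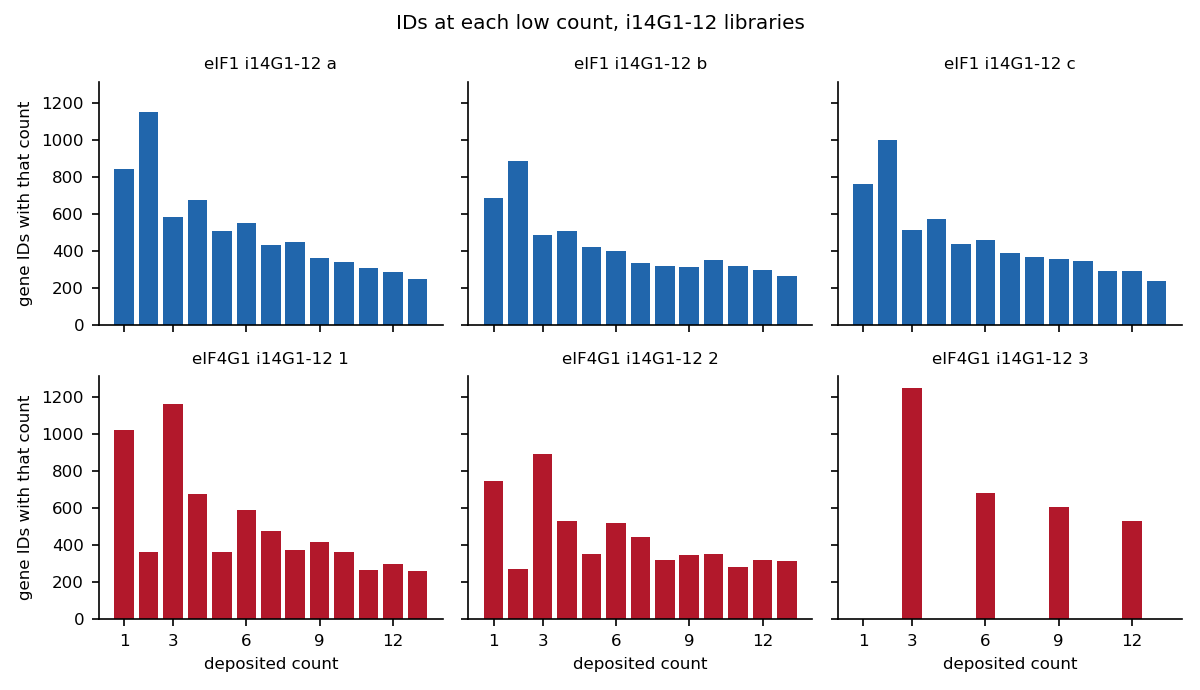
Number of gene IDs (y axis) at each deposited count from 1 to 13 (x axis), 1 panel for each eIF1 (blue) and eIF4G1 (red) library under i14G1-12. In eIF4G1 library 3 only counts of 3, 6, 9 and 12 occur in this range, and the tallest bar is at 2 counts in the eIF1 libraries and at 3 counts in all eIF4G1 libraries.

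The libraries of a group resembled each other more in eIF1 than in eIF4G1. Over 7715 IDs with at least 200 counts in all, Spearman's rho was 0.821 to 0.868 within eIF1, 0.703 to 0.797 within eIF4G1 and 0.665 to 0.784 between the groups, as a description across IDs that share library depth. eIF4G1 library 1 had the lowest values in its group (0.703 and 0.718) and the fewest counts. Of 7378 IDs with a mean of at least 20 CPM, it lay more than 4-fold above both other eIF4G1 libraries for 47 and more than 4-fold below both for 303. For eIF4G1 library 2 these numbers were 12 and 127, and for library 3 they were 14 and 10. ENSG00000178951, the ID with the most negative log2 difference, was chosen with its values known. It had 2532 CPM in eIF4G1 library 1 against 9.36 and 26.8 in libraries 2 and 3, and 49.9, 17.2 and 18.9 in eIF1. Results are therefore also given without eIF4G1 library 1.

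Few mRNAs passed the test, and all that did were higher in eIF1 complexes. Of the 7748 IDs, 20 were called higher in eIF1 (0.258%) and 0 lower (edgeR's quasi-likelihood test, Benjamini-Hochberg adjusted p under 0.05). The 20 spanned log2 differences of 1.57 to 7.39 (median 1.88), where the median over all tested IDs was -0.03. Of the 20, 7 exceeded 2 and 3 exceeded 4 on that scale. The largest, 7.39, belonged to ENSG00000156475, which had 0 counts in the eIF4G1 libraries, so its size is set by the prior count of the fit. It was 2.37 with a prior count of 5 and 3.46 by limma. The middle 50% of all tested IDs lay between -0.43 and 0.39, and 432 exceeded 1 while 444 fell below -1. The groups did not overlap for any of the 20, but they also did not overlap, with eIF1 higher, for 780 tested IDs (10.1%), and with eIF1 lower for 821 (10.6%).

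**Figure D2:**
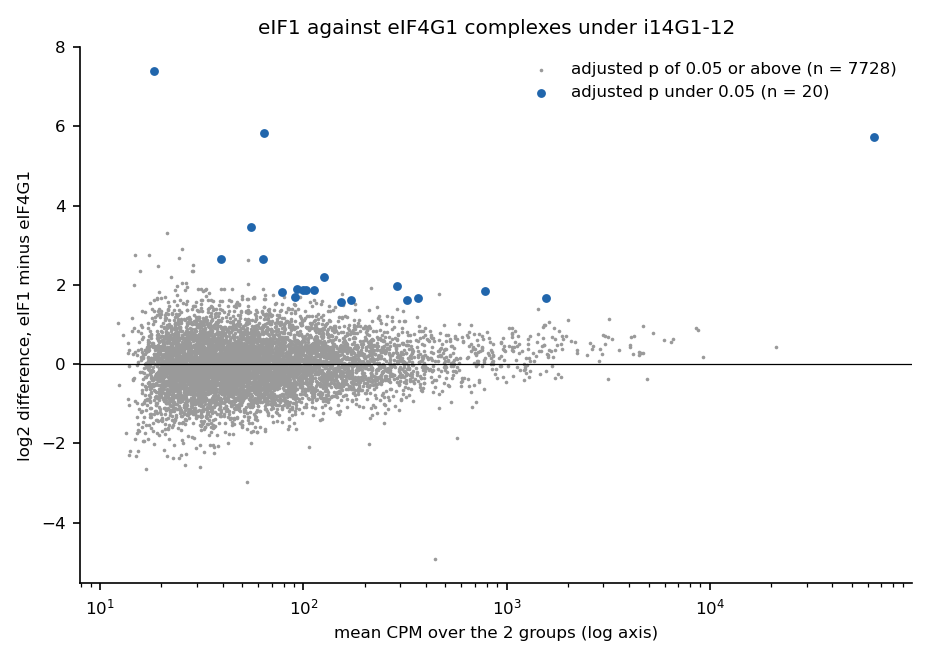
Log2 difference of eIF1 minus eIF4G1 under i14G1-12 (y axis, edgeR fit, TMM-scaled) against the mean CPM over the groups (x axis, log scale), 1 point per tested ID. The 20 called IDs (blue) all lie above 0, from 1.57 upward, and the point near -5 is ENSG00000178951, whose eIF4G1 level came from library 1.

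The direction of the calls was less one-sided than the count of 0 reads. At an unadjusted p under 0.05 there were 1088 IDs, 579 higher and 509 lower in eIF1, where 387.4 would fall below that p if no ID differed. DESeq2 called 102 higher and 23 lower of the 3761 IDs to which it gave an adjusted p. Limma with a trend called 16 and 0 of the 7748. With totals as the only scaling, the median of all tested IDs moved to -0.33 and the calls split into 8 higher and 7 lower, so a direction here is relative to the bulk of the IDs. With eIF4G1 library 3 divided by 3, 7134 IDs were tested, 27 were called higher and 4 lower (0.435% in all), and 19 of the 20 were called again.

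Leaving out single libraries moved the count more than any scaling did. Without eIF4G1 library 1, 231 IDs were called higher and 53 lower of 8552 tested (2.7% and 0.62%), and all of the 20 were among them. Without eIF1 library a, b or c the calls were 2, 8 and 5, all higher. Without eIF4G1 library 2 they were 8 higher and 4 lower, and without eIF4G1 library 3 they were 2, both higher. The count of 20 is thus a number for these 6 libraries together.

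**Figure D3:**
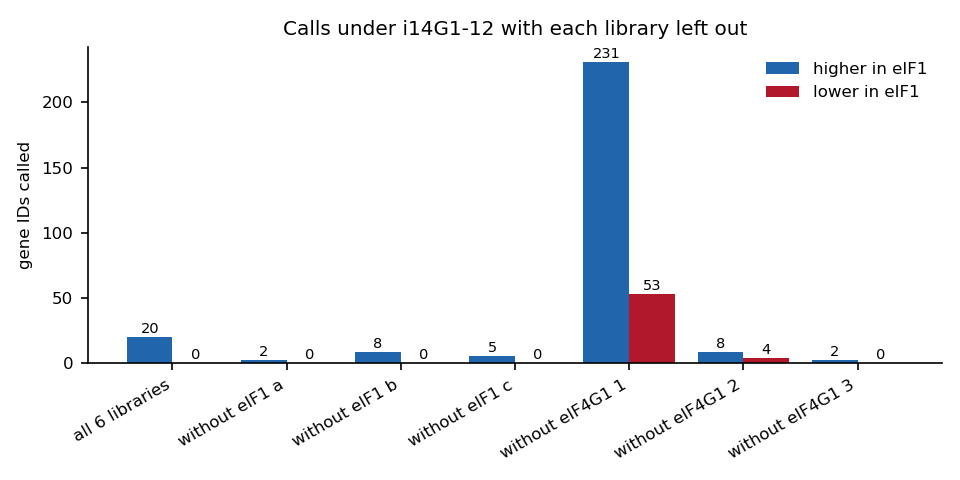
Number of IDs called higher (blue) and lower (red) in eIF1 than in eIF4G1 under i14G1-12 (y axis), with all 6 libraries and with each library left out (x axis). The count rises from 20 to 284 without eIF4G1 library 1 and falls to between 2 and 12 without any other library.

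The most abundant ID of the eIF1 complexes was also the one with the smallest p. ENSG00000173812, chosen here with its values known, took 16.7%, 6.24% and 7.66% of the counts of the eIF1 libraries and 0.210%, 0.252% and 0.303% of those of the eIF4G1 libraries. Every eIF1 library lay far above every eIF4G1 library, and eIF1 library a held more than the other eIF1 libraries. The log2 difference was 5.73 (SE 0.54, edgeR adjusted p = 3.16e-06), and it passed in 16 of 16 alternative settings that include this ID. In the HA-eIF2a libraries it took 0.136% and 0.158%, and in eIF3 0.116% and 0.0848%. In DMSO its share was 5.45% and 7.22% in eIF1 libraries b and c, and larger in library a, as under i14G1-12. Leaving ENSG00000173812 out before scaling left 19 calls. The IDs carry no gene names here, so whether it is the gene of the tagged eIF1 was not determined.

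The 2 called mRNAs with the largest log2 differences were nearly or wholly undetected in eIF4G1 complexes. ENSG00000175874 stood at 140, 75.6 and 164 CPM in eIF1 libraries a, b and c, and at 3.17, 0 and 2.44 CPM in eIF4G1 libraries 1, 2 and 3. These are 56, 44 and 78 counts against 1, 0 and 3, and 3 is the smallest count above 0 in eIF4G1 library 3. The means were 126 ± 45.6 and 1.87 ± 1.66 CPM (SD, n = 3 each), a log2 difference of 5.83 (SE 0.62, edgeR adjusted p = 1.27e-05). ENSG00000175874 passed in all 17 alternative settings, with log2 differences of 3.66 to 6.27. It had 0 counts in both HA-eIF2a libraries under i14G1-12, and 3 and 2 counts in the eIF3 libraries.

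ENSG00000156475 stood at 52.4, 22.4 and 35.7 CPM in eIF1 libraries a, b and c (mean 36.8 ± 15.1 SD, n = 3) and had 0 counts in all 3 eIF4G1 libraries. The eIF1 values came from 21, 13 and 17 counts. Set against a floor of 3 counts over the eIF4G1 group, 1.52 CPM, the mean level in eIF1 was 24.2-fold that floor (edgeR adjusted p = 0.00985 for the difference). That ratio is not a lower bound, since it leaves out the spread of the eIF1 libraries. The call was lost without eIF1 library a (adjusted p = 0.318), eIF1 library c (adjusted p = 0.0624) or eIF4G1 library 3 (adjusted p = 0.0805) and with limma (adjusted p = 0.117). With eIF4G1 library 3 divided by 3, ENSG00000156475 fell below the filter, the floor rose to 2.64 CPM and the ratio was 14.1-fold. Under i14G1-12 it had 1 count in 1 of the HA-eIF2a libraries and 1 count in 1 of the eIF3 libraries.

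**Figure D4:**
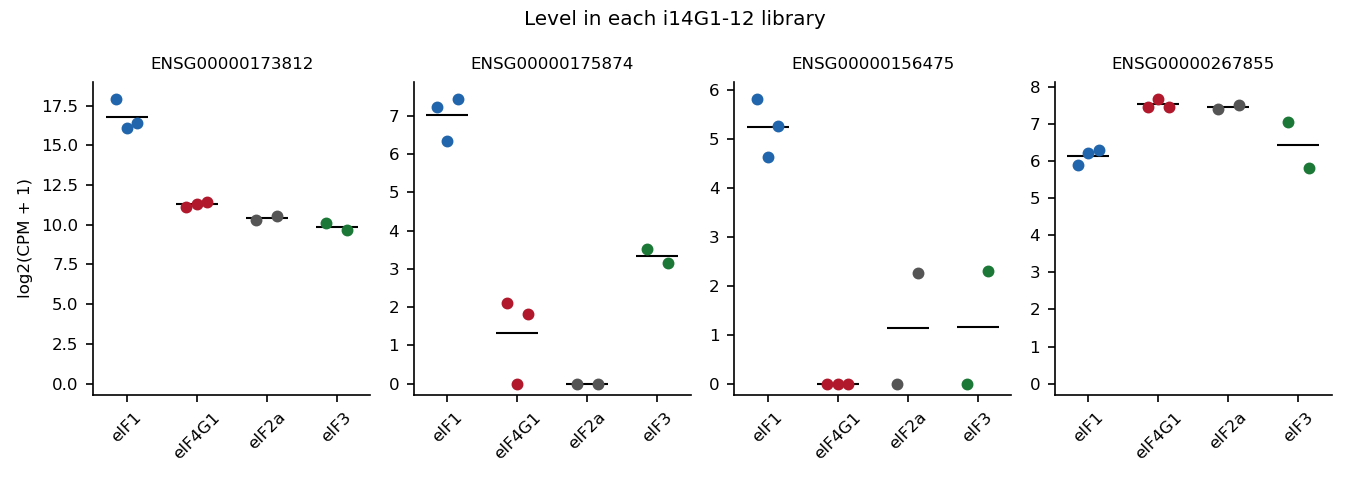
Log2(CPM + 1) of 4 IDs in each library under i14G1-12 (points, with the group mean as a line), scaled over the 10 libraries of eIF1, eIF4G1, eIF2a and eIF3. ENSG00000173812, ENSG00000175874 and ENSG00000156475 are higher in all 3 eIF1 libraries than in every other library, and ENSG00000267855 is lower in the 3 eIF1 libraries than in the 3 eIF4G1 libraries.

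ENSG00000213218, named for its difference in DMSO, showed the same one-sided detection at lower depth. It had 25, 7 and 3 counts in the eIF1 libraries under i14G1-12 (62.4, 12.0 and 6.30 CPM), and 0 in every eIF4G1, HA-eIF2a and eIF3 library of either treatment. It missed the filter here and was not tested. Against the same floor its mean eIF1 level was 17.7-fold higher, or 10.3-fold with eIF4G1 library 3 divided by 3. These ratios are not lower bounds, since they leave out the spread of the eIF1 libraries. Library c, at 6.30 CPM, lay below the 9.34 and 7.48 CPM that a count of 0 allows in eIF4G1 libraries 1 and 2. Across all 19029 IDs, 6 with a mean of at least 10 CPM in eIF1 had 0 counts in all 3 eIF4G1 libraries, and 9 had the reverse. At a mean of at least 20 CPM the numbers were 3 and 0. A count of 0 allows up to 9.34, 7.48 and 2.76 CPM in eIF4G1 libraries 1, 2 and 3 (3 counts of the total, counting error only), and up to 8.29 CPM in library 3 after the division by 3, so 0 there does not show absence.

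No mRNA passed as lower in eIF1 complexes. The smallest p in that direction belonged to ENSG00000267855, at 54.9, 68.8 and 73.5 CPM in eIF1 libraries a, b and c and at 165, 192 and 168 CPM in eIF4G1 libraries 1, 2 and 3. The groups did not overlap, with means of 65.7 ± 9.65 and 175 ± 14.7 CPM (SD, n = 3 each). The log2 difference was -1.40 (SE 0.31, edgeR adjusted p = 0.0534), and it passed in 8 of 17 alternative settings, with adjusted p from 0.0110 to 0.381. In DMSO the difference of ENSG00000267855 was -0.57 (SE 0.26, edgeR adjusted p = 0.221). With eIF4G1 library 3 divided by 3, ENSG00000128965 was among the 4 called lower: it stood at 22.5, 13.8 and 29.4 CPM in eIF1 and at 105, 98.3 and 61.0 CPM in eIF4G1 as deposited. Its log2 difference was -2.01 (SE 0.44, edgeR adjusted p = 0.0493) after the division and -1.99 (SE 0.45, edgeR adjusted p = 0.0534) as deposited. The value in DMSO was -1.71 (SE 0.44, edgeR adjusted p = 0.0150). ENSG00000130766, also among the 4, stood at 82.4, 129 and 181 CPM in eIF1 and at 526, 255 and 329 CPM in eIF4G1 as deposited. Its log2 difference was -1.49 both after the division (SE 0.34, edgeR adjusted p = 0.0493) and as deposited (SE 0.34, edgeR adjusted p = 0.0534). The value in DMSO was -0.16 (SE 0.23, edgeR adjusted p = 0.788), with overlapping groups.

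The 20 called mRNAs had a median difference of 3.67-fold. They had mean levels of 36.8 to 126761 CPM in eIF1 (median 170.2) and 0 to 2395 CPM in eIF4G1 (median 45.5), where the medians over all tested IDs were 49.99 and 51.1 CPM. Partner IDs with counts within 15% in each of the 6 libraries were sought among IDs with at least 100 counts over those libraries. Of the called IDs that reached that total, 0 had such a partner. ENSG00000156475, with 51 counts in eIF1 and 0 in eIF4G1, did not reach it and was not searched. The search does not bound reads shared between similar genes.

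The difference between the partners was next followed in DMSO, in libraries that share none with the i14G1-12 comparison. In DMSO 392 IDs were called higher in eIF1 (4.14%) and 123 lower (1.3%) of 9463 tested. All 20 IDs called under i14G1-12 were higher in eIF1 in DMSO too, with a median log2 difference of 2.08, and 18 of them were called there. These 18 are 90.0% of the 20 and 4.59% of the 392. Across 7691 IDs tested in both, Pearson's r between the differences was 0.57 and Spearman's rho 0.52, as a description across IDs, which are not independent replicates.

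Read from the other side, most mRNAs that separated the partners in DMSO leaned the same way under i14G1-12, without passing the test there. Of the 392, 383 were tested under i14G1-12 and 360 were higher in eIF1 (94.0%, against 48.3% of all IDs tested in both). Their median log2 difference was 0.79, against 1.30 in the DMSO libraries that had chosen them. Groups did not overlap, with eIF1 higher, for 183 of them (47.8%, against 10.1% of all), and 18 were called (4.70%, against 0.260% of all). Of the 123 lower in DMSO, 104 were tested and 95 were lower (91.3%), with a median of -0.79 against -1.17 in DMSO. For 51 of these the groups did not overlap (49.0%, against 10.6% of all), and 0 were called. Since the lists were chosen by their DMSO values, the smaller medians under i14G1-12 do not test a change. The contrast of differences given further on tests single IDs, uses those same DMSO libraries, and gives no result for these lists. In the 9 pairings of an eIF1 with an eIF4G1 library under i14G1-12, the median difference of the first list on the log2(CPM + 1) scale ran from 0.28 to 1.45 and that of the second from -1.09 to -0.48. Under totals as the only scaling the medians were 0.47 and -1.09, each still on its side of the -0.33 of all tested IDs, and in DMSO that scaling turned the split of the calls to 177 higher and 523 lower. Without eIF4G1 library 1, 131 of 387 tested were called higher and 18 of 109 lower, where 223 and 50 of the 7691 IDs were called.

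**Figure D5:**
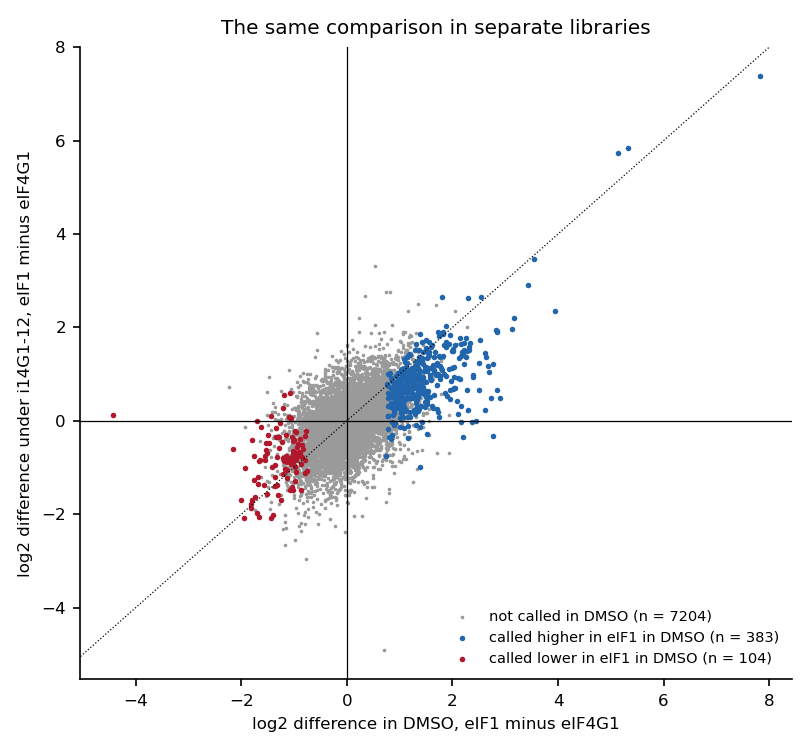
Log2 difference of eIF1 minus eIF4G1 under i14G1-12 (y axis) against the same difference in DMSO (x axis), 1 point per ID tested in both, with the line of equal values dotted. Of the 383 IDs called higher in DMSO (blue), 360 lie above 0 under i14G1-12, and of the 104 called lower (red), 95 lie below 0. The value of ENSG00000156475, at the upper right, is fitted against groups at 0 counts and has no defined size.

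These lists made up a measurable part of each library. Without ENSG00000173812, the 391 other IDs called higher in DMSO held 26.3%, 20.9% and 21.3% of the counts of eIF1 libraries a, b and c under i14G1-12. They held 18.3%, 16.0% and 14.1% of eIF4G1 libraries 1, 2 and 3, 13.8% and 13.3% of the HA-eIF2a libraries, and 16.1% and 10.5% of the eIF3 libraries. The eIF1 libraries were thus above all others, with the eIF4G1 libraries between 14.1% and 18.3%, and the groups did not overlap. In DMSO, where the list was chosen, it held 23.0%, 16.5% and 19.2% of the eIF1 and 10.7%, 9.57% and 8.89% of the eIF4G1 libraries. The 123 IDs called lower in DMSO held 0.616%, 0.910% and 0.843% of the eIF1 libraries under i14G1-12, against 1.25%, 1.65% and 1.70% of the eIF4G1 libraries. In HA-eIF2a and eIF3 that list held 1.44% to 1.63%, within the range of eIF4G1 and above every eIF1 library.

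Whether the difference between the partners itself differed between i14G1-12 and DMSO was tested in 1 fit to the 12 libraries. Of 9287 IDs tested, 0 were called with a larger and 2 with a smaller difference under i14G1-12 (0.0215%). Without regard to a call, 519 lay above 1 and 658 below -1 on the log2 scale. At an unadjusted p under 0.05 there were 348, fewer than the 464.35 that fall there if no ID differs, and DESeq2 called 0 larger and 3 smaller. In ENSG00000204388 the partners differed in DMSO, at 1306 ± 138 CPM in eIF1 and 191 ± 27.8 CPM in eIF4G1 (SD, n = 3 each), and under i14G1-12 they stood at 1644 ± 123 and 2057 ± 711 CPM (SD, n = 3 each). The difference of differences was -3.05 (SE 0.37, edgeR adjusted p = 1.49e-05). The large SD came from eIF4G1 library 1, and without it the log2 difference under i14G1-12 was 0.02. In DMSO, ENSG00000204388 had 302 and 24 counts in the HA-eIF2a libraries (totals 269816 and 10033). In the eIF3 libraries it had 277 and 8 (totals 582437 and 59179), a smaller share. Under i14G1-12 it had 391 and 300 in HA-eIF2a (totals 152354 and 244508), and 735 and 282 in eIF3 (totals 276877 and 239495). ENSG00000204389 gave -2.50 (SE 0.41, edgeR adjusted p = 0.00343), with a difference of 2.19 in DMSO and -0.35 under i14G1-12. In DMSO it had 91 and 10 counts in the HA-eIF2a libraries and 54 and 4 in the eIF3 libraries. Under i14G1-12 these counts were 137 and 79 in HA-eIF2a, and 266 and 118 in eIF3. Whether these 2 differences in DMSO belong to the HA pulldown or to eIF1 was not tested. The smallest p among larger differences was that of ENSG00000137168, at 1.69 (SE 0.48, edgeR adjusted p = 0.9997). For the 20 IDs called under i14G1-12 the difference of differences ran from -1.10 to 1.31, was negative in 10, and had an unadjusted p under 0.05 in 2.

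The levels of the 20 called mRNAs were also read in the complexes of the other factors under i14G1-12. eIF2a is a subunit of the factor that delivers the initiator tRNA and was pulled down through HA, as eIF1 was, and eIF3 is the large factor that binds eIF4G1 on the small subunit. The median level of the 20 was 241, 149 and 180 CPM in eIF1 libraries a, b and c. It was 51.9, 40.0 and 45.9 CPM in eIF4G1 libraries 1, 2 and 3, 54.3 and 40.1 CPM in HA-eIF2a, and 71.1 and 45.5 CPM in eIF3. The eIF1 libraries stood above every library of the other 3 factors for 19 of the 20, where 4.36% of 8445 IDs did so. They stood above both HA-eIF2a libraries for 20 of the 20 (22.2% of the 8445) and above both eIF3 libraries for 19 (19.4%). The 20 were chosen for a high level in these same eIF1 libraries, so only the level in HA-eIF2a and eIF3 is independent of the choice.

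HA-eIF2a set against eIF3 shares no library with the comparison of eIF1 and eIF4G1, and it also sets an HA pulldown against another antibody. Of 5704 IDs tested, 3 were called higher and 9 lower in HA-eIF2a (0.21%). Of the 20 IDs called for eIF1, 12 could be tested, 6 were higher in HA-eIF2a, and 0 were called. Across 5579 IDs tested in both, Pearson's r was -0.09 and Spearman's rho -0.10, as a description. Leaving out 1 library left a group with a lone library, which is then assumed to vary like the other group. The calls were 1651 without eIF3 library 1, 131 without eIF3 library 2, and 0 without either HA-eIF2a library, with 164 and 199 IDs at an unadjusted p under 0.05. In eIF3 library 2, Spearman's rho with the other 9 libraries under i14G1-12 was 0.447 to 0.676.

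The length of the counted sequence had little relation to the difference between the partners. Spearman's rho between the log2 difference and length was 0.03 over the 7748 IDs and ran from -0.14 to 0.14 over the 9 pairings of single libraries (SD 0.11), with 6 of 9 above 0. The median difference in 4 equal classes by length, from shortest to longest, was -0.06, -0.03, -0.03 and -0.01. The classes held 6, 3, 8 and 3 of the 20 calls. The called IDs had a median length of 4055 nt, from 1470 to 13941 nt, and all tested IDs had a median of 3412.5 nt. In DMSO rho was 0.06.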

How the data were processed

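Raw counts of reads, deposited by the authors, came in 4 tables, 1 per immunoprecipitated factor, over 19029 Ensembl IDs with 1 transcript sequence each, per the file headers. Per the submitters' processing notes, cutadapt, Trimmomatic, Bowtie, HISAT2 and featureCounts were used with hg38; versions are not given in the sources used here. The sequence length in those tables, also deposited, was used as it stands. The IDs are not paired with names in the files and 0 of 19029 matched the reference table, so no ID is named, at most 2 IDs per direction and comparison are given beside the most abundant, and the 28 planned gene lists, cell type markers, printed sequences and start-region features were not run. The names of the eIF1 columns show their group but not their replicate, and the letters a, b and c stand for them. The other columns carry the replicate numbers of the labels. No pair of replicates of eIF1 or eIF4G1 under i14G1-12 agreed within counting noise (chi-square over degrees of freedom 2.54 to 9.54).

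The libraries of each comparison were fitted alone in edgeR 4.0.16 under R 4.3.3 (filterByExpr with a minimum count of 10, TMM scaling, glmQLFit, glmQLFTest), and the difference of differences on the 12 eIF1 and eIF4G1 libraries. P-values were adjusted by Benjamini-Hochberg over all tested IDs at 0.05. An SE is the absolute log2 difference over the square root of F. CPM are TMM-scaled within the libraries of a comparison, so the same library has slightly different CPM in the 6-library and 10-library scalings. IDs were named if called, without overlap between groups and with a mean of at least 10 CPM in the higher group, by size of difference; where none passed, the smallest p was taken. The members and lists were chosen with earlier results of these data known. Alternatives were DESeq2 size factors, totals only, no filter, a minimum count of 30, the DESeq2 1.42.0 test, fits to 12 or 20 libraries, a prior count of 5, a minimum of 20 CPM and leaving out each library; limma 3.58.1, division of 1 library by 3 and leaving out the most abundant ID were added after the data were seen. The fitting code was tested on simulated data.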

Additional observations from a re-analysis of the deposited data

Results flagged for a closer look

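The difference of eIF1 minus eIF4G1 was called smaller under i14G1-12 than in DMSO for 2 IDs by the contrast of differences, which is what set them apart. The value was -3.05 for ENSG00000204388 and -2.50 for ENSG00000204389 on the log2 scale. Over 21 alternative settings each kept its sign and stayed past the threshold, with edgeR, DESeq2 or limma adjusted p of at most 0.00220 and 0.0425. Groups here hold 2 or 3 libraries, so no library was tested as an outlier within its group.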

How the results depend on the processing

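The count of 20 of 7748 IDs under i14G1-12 was 169 of 14726 with no filter on low counts and 45 of 3609 with a minimum count of 30. It was 125 of 3761 by the DESeq2 test and 31 of 7134 with eIF4G1 library 3 divided by 3. The count was 152 of 9287 in 1 fit to the 12 eIF1 and eIF4G1 libraries, and 103 of 9426 in 1 fit to all 20 libraries. With each library left out it ran from 2 to 284. The causes were not tested, apart from the fits with more or fewer libraries, which differ in samples by construction. Of the 20, the number still called was 20 with no filter and in both larger fits, 17 of 17 tested with a minimum of 30, 18 of 18 with an adjusted p by DESeq2, 15 by limma and 8 with totals only. The DMSO count of 515 was 251 in the 12-library and 194 in the 20-library fit, and 180 to 548 with a library left out. The count of 2 for the difference of differences was 4 with no filter. The count of 12 for HA-eIF2a against eIF3 was 2 with totals only, 29 with no filter, 19 with a minimum of 30, 2 by DESeq2, 6 by limma and 0 to 1651 with a library left out, where the lone library of a group is assumed to vary like the other group. The median under i14G1-12 of IDs called lower in DMSO, -0.79, was -1.09 with totals only, where the median of all IDs was -0.33. No paired analysis was possible because the eIF1 columns do not carry the replicate numbers of the labels. The planned run without the EIF1 row was replaced by one without the most abundant ID (19 calls under i14G1-12). No ID is tied to a gene name here, so whether the most abundant ID is the EIF1 row was not determined. Depth limits IDs near 3 counts, which are 2.76 to 9.34 CPM over the 6 libraries.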
